A study of Mus musculus with 3 samples.

Results

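Foxc1, Ebf1, Ebf2, Ebf3, Prrx1 and Runx1 encode transcription factors, proteins that bind DNA and set which genes a cell transcribes. They were described here in single cells of mouse bone marrow after deletion of Vegfc, which encodes a vascular growth factor. The members were the rows of the deposited count tables that carry these 6 symbols, 6 of 31053 features, and all 6 were found. The comparison was between 3 libraries, 1 per genotype. VC was Cdh5CreERT2;Vegfc flox/flox, in which a tamoxifen-inducible Cre is driven by the promoter of Cdh5, the gene of the endothelial protein VE-cadherin. FLOX was Vegfc flox/flox with no Cre named in its label, and WT carried the genotype WT. All mice were C57Bl/6JCrl and all received tamoxifen by gavage. Marrow was flushed from tibias and digested, and the labels name the captured cells as LepR+ cells and endothelial cells. Sex, age, the number of mice per library and the sorting gates were not given in the sources used here. Because no genotype was replicated, differences between genotypes could not be tested and describe these libraries only.

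Bone marrow stroma that expresses the leptin receptor (LepR) surrounds sinusoidal vessels, secretes Cxcl12 and stem cell factor (Kitl), and gives rise to marrow fat cells and bone. The forkhead factor Foxc1 and the EBF family (early B cell factors, DNA-binding proteins with a helix-loop-helix motif) are known from mouse genetics to maintain this stroma. Ebf1 has a separate and older role as an early factor of B cell commitment. Prrx1 is a paired-type homeobox factor of limb mesenchyme, and Runx1 is a runt-domain factor best known for its part in the origin of blood stem cells from endothelium.

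In genome build GRCm38 the genes lie on 6 chromosomes. Foxc1 (ENSMUSG00000050295) spans chr13:31806633-31812476 on the plus strand. Ebf1 (ENSMUSG00000057098) spans chr11:44617317-45008091 on the plus strand, Ebf2 (ENSMUSG00000022053) chr14:67233292-67430918 on the plus strand, and Ebf3 (ENSMUSG00000010476) chr7:137193673-137314445 on the minus strand. Prrx1 (ENSMUSG00000026586) spans chr1:163245119-163313710 and Runx1 (ENSMUSG00000022952) chr16:92601466-92826149, both on the minus strand. Each of Ebf2, Ebf3 and Runx1 overlaps exons of 1 gene on the opposite strand (Gm10860, Gm45278 and Gm26626). The last 500 transcript bases of Ebf1, Ebf2, Ebf3 and Ebf4, near which 3′ reads start, shared 0 words of 31 bases, so the family members could be told apart there.

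Sequences upstream of the start were searched because the factors belong to the families whose binding letters are known. RefSeq (GRCm38.p6) gave 7 promoters for 5 of the 6 genes, and 250 bases before each start were searched on both strands for CCCNNGGG (EBF), GTAAACA (forkhead) and ACCACA (RUNX). The 3 sequences with a match are printed 5′ to 3′ on the strand of the gene, with the match in capitals. The Foxc1 window is chr13:31806396-31806645 (plus strand), the Ebf1 window chr11:44617850-44618099 (plus strand) and the Ebf3 window chr7:137314446-137314695 (minus strand).
Foxc1: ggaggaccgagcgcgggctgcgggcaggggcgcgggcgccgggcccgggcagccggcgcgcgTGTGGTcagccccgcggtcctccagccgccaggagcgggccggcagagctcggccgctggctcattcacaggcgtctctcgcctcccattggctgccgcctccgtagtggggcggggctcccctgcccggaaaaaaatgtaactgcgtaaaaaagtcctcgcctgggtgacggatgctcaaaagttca
Ebf1: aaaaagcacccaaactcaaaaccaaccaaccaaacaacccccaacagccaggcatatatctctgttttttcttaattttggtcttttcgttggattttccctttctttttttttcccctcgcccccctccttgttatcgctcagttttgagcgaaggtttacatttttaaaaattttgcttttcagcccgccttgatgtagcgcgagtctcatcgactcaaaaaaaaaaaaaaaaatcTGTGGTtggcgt
Ebf3: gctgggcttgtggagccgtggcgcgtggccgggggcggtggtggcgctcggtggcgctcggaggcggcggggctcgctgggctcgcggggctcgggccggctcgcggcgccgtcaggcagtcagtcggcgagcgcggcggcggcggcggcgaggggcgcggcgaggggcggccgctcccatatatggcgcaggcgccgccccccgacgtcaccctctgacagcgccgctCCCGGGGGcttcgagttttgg
The Foxc1 window held 1 RUNX match, starting 188 bases before the transcript start. The first Ebf1 window held 1 RUNX match 12 bases before its start, and the Ebf3 window held 1 EBF match 21 bases before its start. A second Ebf1 window (chr11:44619978-44620227), the Prrx1 window (chr1:163313651-163313900) and both Runx1 windows (chr16:92697330-92697579 and chr16:92826075-92826324) held none of these letters. Over 32851 mouse promoter windows of the same length, 11.8% held the EBF letters, 3.17% the forkhead letters and 14.0% the RUNX letters. A match describes the letters and does not show binding. No promoter of Ebf2 was matched.

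Cells were kept at 500 or more genes and at most 10% mitochondrial unique molecular identifiers (UMIs, which count captured mRNA molecules), which left 2738 VC, 5734 FLOX and 4318 WT cells with median depths of 10917, 8702 and 10404 UMIs. LepR stromal cells had at least 50 Cxcl12 UMIs, at least 1 UMI of Lepr or Adipoq and at most 2 of Cdh5, and numbered 466 in VC, 1107 in FLOX and 264 in WT. Endothelial cells (at least 1 Cdh5 UMI and under 50 of Cxcl12) numbered 1840, 3581 and 3196, and B cells (at least 2 Cd79a UMIs, no Cdh5) 168, 373 and 339. Fibroblast-like cells (at least 3 UMIs of both Dcn and Col3a1, under 50 of Cxcl12, at most 2 of Cdh5) numbered only 5, 8 and 2. Levels are in CPM, UMIs per 1000000 UMIs of the class in that library. Intervals are exact 95% Poisson or binomial limits, which cover counting error only and not the spread between mice.

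The class labels were checked against markers that the rule did not use. The 10 LepR stromal markers, among them Kitl, Pdgfra and Il7, were all detected in LepR stromal cells of every library and summed to 16055 CPM in VC, 18364 in FLOX and 16185 in WT, against 2824, 2960 and 1693 CPM in endothelial cells. The 10 endothelial markers summed to 7342, 7327 and 8158 CPM in endothelial cells of VC, FLOX and WT and to 37.9, 73.2 and 104 CPM in LepR stromal cells. The fibroblast-like label was borne out less well. Of 10 fibroblast markers, 8, 9 and 5 were detected in these cells of VC, FLOX and WT, with medians of 192, 275 and 25.9 CPM. Of the LepR stromal markers, 9, 10 and 10 were detected in them, with medians of 235, 180 and 259 CPM. In LepR stromal cells, markers of other cells also differed between libraries: erythroid markers summed to 1116 CPM in VC, 49.1 in FLOX and 1135 in WT, and leukocyte markers to 168, 74.4 and 25.2 CPM. Vegfc, the targeted gene, had 6 UMIs in VC endothelial cells, 27 in FLOX and 66 in WT, or 0.258, 0.810 and 1.62 CPM. It was at 145, 201 and 246 CPM in LepR stromal cells. Reads at the 3′ end need not cover the deleted exons, so these counts do not measure the deletion. Of the barcodes, 21 occurred in more than 1 library.

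Of the 6 factors, 5 were abundant in LepR stromal cells and Ebf2 was scarce. Over the 3 libraries Ebf3 averaged 1053 ± 268 CPM and Runx1 990 ± 158 CPM (SD, n = 3 libraries of different genotype), followed by Ebf1 at 764 ± 168, Foxc1 at 424 ± 104 and Prrx1 at 358 ± 63.9 CPM. Ebf2 averaged 23.6 ± 5.25 CPM. Runx1 lay above Ebf1, and Ebf1 above Foxc1, in every library. Ebf3 and Runx1 differed by less than the SD of either, and Foxc1 and Prrx1 by less than the SD of Foxc1. Runx1 was above Ebf3 in FLOX and below it in VC and WT, and Foxc1 and Prrx1 had equal counts in FLOX. UMIs were counted at the 3′ ends of transcripts and need no correction for gene length, but how well each gene is captured was not measured.

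Ebf3 had 878 CPM in VC, 919 in FLOX and 1362 in WT stroma, from 6117, 12331 and 4058 UMIs. It stood at rank 136, 123 and 58 among the 16666, 17809 and 15531 genes detected in this class. Runx1 had 843, 970 and 1157 CPM and rank 141, 110 and 67. A gene known for blood formation was thus counted at about the level of Ebf3 in these stromal cells. Ebf1 had 698, 640 and 955 CPM, Foxc1 415, 325 and 533 CPM, and Prrx1 319, 325 and 432 CPM. WT was the highest library for all of them, while VC and FLOX changed places between genes. Ebf2, a factor with roles in fat and bone cells, had 22.0 CPM in VC, 19.4 in FLOX and 29.5 in WT, from 153, 261 and 88 UMIs.

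**Figure D1:**
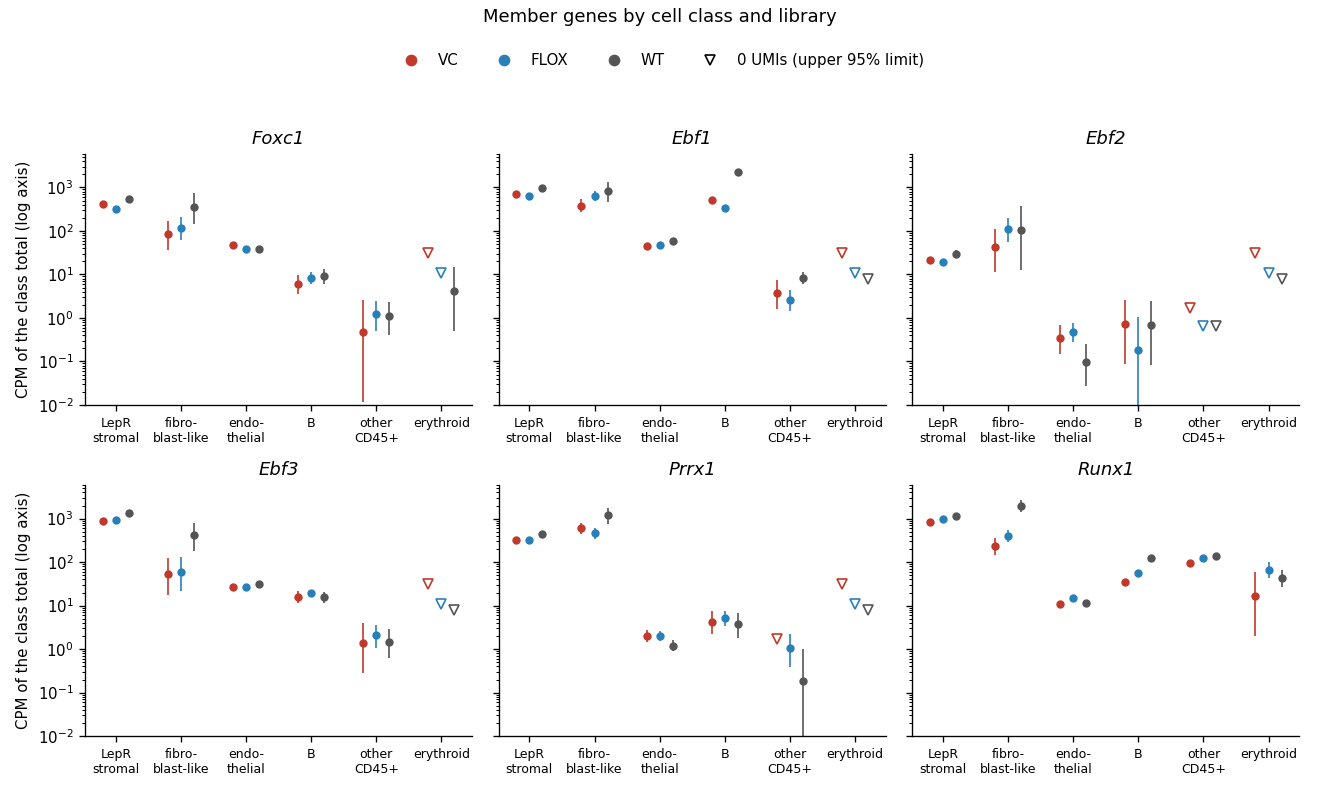
Level of each of the 6 genes (CPM of the class total, log axis) in 6 cell classes, 1 point per library (VC, FLOX, WT) with its 95% Poisson interval; open triangles mark 0 UMIs at the upper 95% limit. Foxc1 and Ebf3 are highest in LepR stromal cells in VC, FLOX and WT, Prrx1 in fibroblast-like cells, and Ebf1 is also high in B cells.

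Every member was higher in LepR stromal than in endothelial cells, by at least 2-fold in every library (6 of 6, where 14.0% of 14479 features with 50 or more UMIs met the same rule). The ratio was lowest for Foxc1, at 8.89 in VC, 8.26 in FLOX and 13.6 in WT, and next for Ebf1, at 15.1, 13.8 and 15.9. Ebf3 was higher by 32.4-, 34.9- and 44.3-fold and Runx1 by 75.5-, 65.2- and 101-fold. Prrx1, which separated these classes most among the abundant members, was higher by 158-, 161- and 359-fold. Ebf2 reached 63.9-, 40.5- and 301-fold, the last against 4 UMIs in WT endothelium, all from 1 cell (interval 113 to 1128). The median log2 ratio over all features was -0.01.

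Against B cells 5 of 6 members met the rule (27.6% of 12707 features did), and Ebf1 did not. Foxc1 was higher in LepR stromal cells by 68.0-fold in VC, 39.3-fold in FLOX and 58.7-fold in WT, and Ebf3 by 55.6-, 48.0- and 86.2-fold. Runx1, which B cells also carried, was higher by 24.7-, 17.4- and 9.10-fold. For Ebf1 the ratio of LepR stromal to B cells was 1.35 in VC, 1.88 in FLOX and 0.411 in WT, so its direction differed between libraries. Without the B cells rich in Jchain described further on, it was 0.278, 0.310 and 0.363, lower in LepR stroma in all 3 libraries. Runx1 was then higher in LepR stroma by only 6.48-, 3.24- and 8.05-fold. Foxc1 was higher by 16.6-, 7.71- and 51.8-fold and Ebf3 by 13.3-, 8.18- and 76.0-fold. Barcodes that also met the LepR stromal rule were kept in these ratios. With all B cells kept, the median log2 ratio over all features was 0.88. A typical gene was thus also higher in CPM in the stroma than in B cells.

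To compare how many cells held each transcript, every cell was thinned to 2000 UMIs, leaving out 3 VC, 2 FLOX and 2 WT LepR stromal cells and 39, 67 and 58 endothelial cells that were shallower. Ebf3 was then found in 80.6% of VC, 81.3% of FLOX and 92.7% of WT LepR stromal cells, and in 5.22%, 5.46% and 5.83% of endothelial cells. Prrx1 was found in 47.7%, 45.1% and 58.0% of LepR stromal cells and in 0.33%, 0.26% and 0.19% of endothelial cells. Without thinning, the shares of LepR stromal cells with an Ebf3 UMI were 99.4%, 99.0% and 98.9%, and the shares for Prrx1 95.7%, 92.9% and 95.5%. Foxc1 was in 53.6%, 45.4% and 62.6% of thinned LepR stromal cells and in 7.16%, 7.20% and 6.98% of thinned endothelial cells. At equal depth the endothelial share of Foxc1 thus lay well above that of Prrx1 in every library, and their intervals did not overlap. In other CD45 RNA-positive cells, a blood class that should lack Foxc1, its thinned share was 0.781% in VC (1 cell) and 0 in FLOX and WT, where a count of 0 allows up to 0.763% and 1.15% (3 cells of the total, the limit used for all counts of 0 here).

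Most LepR stromal cells held most of the abundant factors. With each cell thinned to 5000 UMIs (458 VC, 1070 FLOX and 242 WT cells; 8, 37 and 22 shallower cells left out), Ebf3 was present in 95.4%, 96.4% and 98.3% of cells, Ebf1 in 94.5%, 94.6% and 98.3%, and Runx1 in 92.4%, 96.0% and 97.5%. Foxc1 was present in 79.0%, 75.2% and 89.3%, Prrx1 in 76.6%, 76.0% and 86.8%, and Ebf2 in 11.1%, 8.32% and 12.4%. All of Foxc1, Ebf1, Ebf3, Prrx1 and Runx1 were present in 52.8% of VC cells (interval 48.2 to 57.5), 52.3% of FLOX cells (49.3 to 55.4) and 75.2% of WT cells (69.3 to 80.5). The product of the 5 single shares was 50.5%, 50.05% and 73.1%, so the joint shares were about what the separate ones give. Another 35.4%, 34.9% and 19.8% of cells held 4 of the 5. No cell lacked all 5, which allows shares of up to 0.655% in VC, 0.280% in FLOX and 1.24% in WT.

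**Figure D2:**
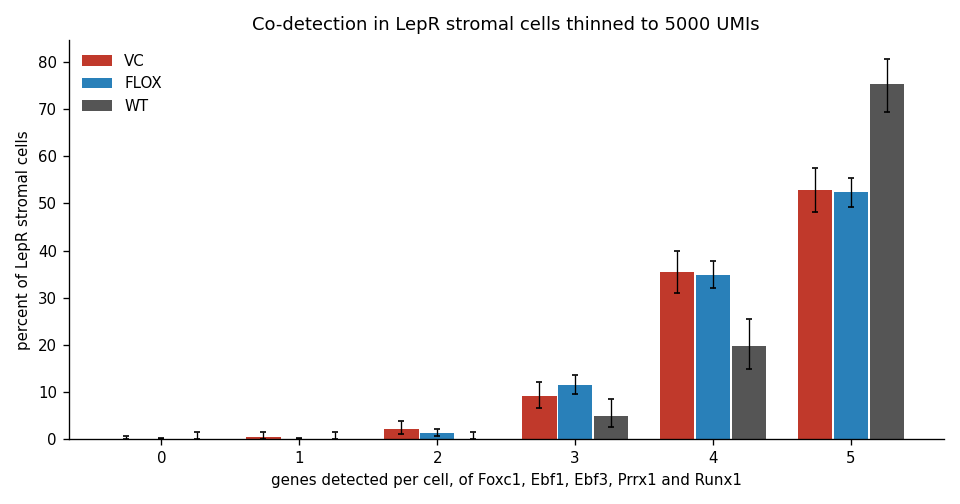
Share of LepR stromal cells (percent, each cell thinned to 5000 UMIs) by how many of Foxc1, Ebf1, Ebf3, Prrx1 and Runx1 had a UMI, with exact 95% binomial intervals, for VC, FLOX and WT. All 5 were found in 52.8% of VC, 52.3% of FLOX and 75.2% of WT cells.

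Counts per cell at this depth spread beyond counting error for all 5 genes. The variance of Runx1 was 2.30, 2.00 and 2.49 times its mean in VC, FLOX and WT cells, with medians of 4, 5 and 5 UMIs and highest cells at 19, 21 and 19 UMIs. Ebf3 had medians of 4, 4 and 6 UMIs and variance-to-mean ratios of 1.86, 1.70 and 2.03, and Prrx1 medians of 1, 1 and 2 UMIs and ratios of 1.27, 1.37 and 1.35. This ratio grows with the level, and counting error alone would give 1. The excess variance over the squared mean, which does not, was 0.298, 0.201 and 0.258 for Runx1, 0.288, 0.267 and 0.171 for Foxc1, 0.170, 0.227 and 0.154 for Prrx1, 0.190, 0.150 and 0.147 for Ebf3 and 0.125, 0.0844 and 0.123 for Ebf1. On that scale Ebf1 was the most even of the 5 in every library, and Runx1 and Foxc1 changed places between libraries.

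LepR stromal cells were also divided by 3 genes of the osteoblast lineage. Cells thinned to 5000 UMIs were split by the sum of Alpl, Sp7 and Wif1 into those with 2 or more UMIs (125 VC, 348 FLOX and 76 WT cells) and those with none (200, 457 and 107 cells). Foxc1 was at 437, 333 and 495 CPM in cells with these 3 transcripts and 446, 359 and 553 CPM in cells without. Ebf3 was at 910, 873 and 1355 CPM against 879, 952 and 1488 CPM, and Prrx1 at 338, 349 and 508 against 319, 323 and 415 CPM. No ratio of the 5 reached 1.5-fold in either direction in any library. Runx2, the osteoblast factor, was at 322, 293 and 416 CPM against 268, 253 and 344 CPM. Bglap, another bone gene, had only 8, 6 and 4 UMIs in cells with these 3 transcripts and 0 in cells without, in VC, FLOX and WT. Ibsp, Spp1 and Col1a1 did not differ by 1.5-fold. Ibsp was at 6155, 7457 and 8282 CPM against 6305, 6673 and 9406 CPM. Spp1 was at 3610, 3502 and 2647 CPM against 3478, 3163 and 2946 CPM. Col1a1 was at 253, 165 and 216 CPM against 257, 215 and 209 CPM. Both sides thus carried bone-forming transcripts, and the values compare cells with and without these 3 genes only.

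Endothelial cells held low but countable levels of Foxc1, Ebf1 and Ebf3. Foxc1 had 46.7 CPM in VC, 39.3 in FLOX and 39.2 in WT endothelial cells. Ebf1 had 46.2, 46.5 and 59.9 CPM, Ebf3 27.1, 26.3 and 30.8 CPM, and Runx1 11.2, 14.9 and 11.4 CPM. Prrx1 had 2.02, 2.01 and 1.20 CPM and Ebf2 0.34, 0.48 and 0.10 CPM. With Adipoq, Col3a1, Cd79a and Ptprc at 0 (1701, 3251 and 2991 cells), Ebf1 was at 38.0, 42.7 and 35.5 CPM, lowest in WT. Foxc1 was at 48.2, 42.1 and 40.4 CPM and Ebf3 at 27.6, 28.0 and 31.4 CPM there. In the 1135 VC, 1925 FLOX and 2174 WT endothelial cells with no UMI of Adipoq or Cxcl12, Foxc1 was at 44.4, 38.7 and 38.6 CPM and Ebf3 at 26.8, 26.5 and 29.7 CPM, close to their levels in the whole class. Ebf1 was at 28.9, 26.8 and 54.7 CPM in these cells, lower than in the whole class by more than 1.5-fold in VC and FLOX. Arterial cells, described below, were high in both Cxcl12 and Ebf1, so leaving out Cxcl12 also leaves out cells of that kind. The part of arterial cells and of stromal transcripts in the lower Ebf1 level was not tested. Foxc1 had 3506, 1488 and 2757 UMIs per 100 Adipoq UMIs in endothelial cells, where Adipoq had only 31, 88 and 58 UMIs. In LepR stromal cells these values were 34.6, 24.9 and 46.3. The part of stromal transcripts in endothelial Foxc1 was not tested.

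Within endothelium the level of Ebf1 was higher in arterial than in sinusoidal cells. Arterial cells were taken as those with 2 or more UMIs of Sox17, Gja4 and Gja5 and none of Stab2 (48 VC, 100 FLOX and 15 WT cells), and sinusoidal cells as those with Stab2 and none of the 3 (1249, 2569 and 2018 cells). Ebf1 was at 552 CPM in VC, 423 in FLOX and 472 in WT arterial cells, against 20.2, 26.2 and 36.8 CPM in sinusoidal cells. The ratio was 27.3, 16.1 and 12.8, and the intervals of both kinds of cell lay far apart in every library. These arterial levels lay below those of LepR stroma, at 698, 640 and 955 CPM, and Adipoq was at 0 in the arterial cells of all 3 libraries. Arterial cells were few and held 26.6%, 25.03% and 3.64% of endothelial Ebf1 UMIs, and sinusoidal cells 26.9%, 36.7% and 34.2%, with the rest in cells of neither kind. Cxcl12 was at 1576, 2001 and 843 CPM in arterial against 54.0, 82.1 and 45.2 CPM in sinusoidal cells, and Kitl at 706, 806 and 323 CPM against 8.81, 13.4 and 8.24 CPM.

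Among the other members the difference between both kinds of cell was smaller or rested on few UMIs. Foxc1 was at 19.3, 25.1 and 42.4 CPM in VC, FLOX and WT arterial cells and 47.8, 42.0 and 39.2 CPM in sinusoidal cells, from only 10, 23 and 8 arterial UMIs. Ebf3 was at 50.2, 48.0 and 31.8 CPM against 26.9, 25.6 and 31.3 CPM, with ratios of 1.86 (1.20 to 2.77), 1.88 (1.35 to 2.55) and 1.02 (0.372 to 2.22). Runx1 was at 9.65, 11.99 and 10.6 CPM in arterial cells and 9.51, 14.0 and 10.1 CPM in sinusoidal cells. Prrx1 had 1, 1 and 6 UMIs and Ebf2 1, 0 and 4 UMIs in arterial cells of VC, FLOX and WT. The 4 Ebf2 UMIs in WT came from 1 cell. In WT the 6 Prrx1 UMIs gave 31.8 CPM against 1.498 CPM in sinusoidal cells, a ratio of 21.2 (7.29 to 51.2). This interval takes the UMIs as independent, and the number of cells they came from was not counted. In VC and FLOX Prrx1 was at 1.93 and 1.09 against 2.097 and 1.29 CPM. Sinusoidal cells held Ebf2 at 0.14 CPM in VC and 0 in FLOX and WT. Foxc1 and Ebf3 thus lay on opposite sides in VC and FLOX, and in WT the 15 arterial cells gave too few UMIs to place either.

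**Figure D3:**
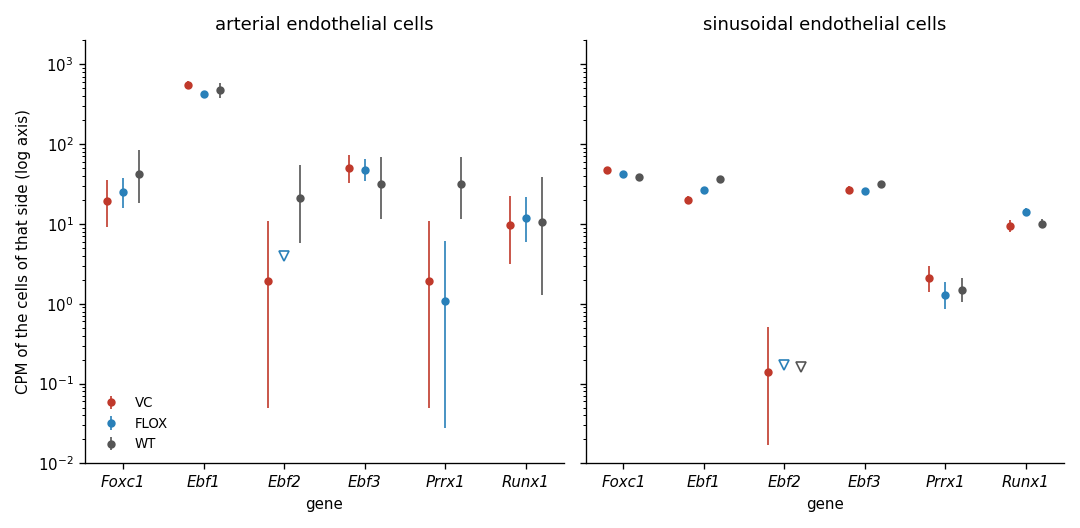
Level of the 6 genes (CPM, log axis) in arterial endothelial cells (left) and sinusoidal ones (right), 1 point per library (VC, FLOX, WT) with its 95% Poisson interval; open triangles mark 0 UMIs at the upper 95% limit. Ebf1 lies at 423 to 552 CPM in arterial and at 20.2 to 36.8 CPM in sinusoidal cells.

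In B cells Ebf1 was the member that stood out, with 515 CPM in VC, 340 in FLOX and 2323 in WT. Runx1 followed at 34.1, 55.8 and 127 CPM. Ebf3 had 15.8, 19.2 and 15.8 CPM, Foxc1 6.10, 8.26 and 9.08 CPM and Prrx1 4.31, 5.26 and 3.70 CPM. These last levels rested on barcodes that also met another class rule, mostly LepR stromal (3 VC, 8 FLOX and 3 WT barcodes): without barcodes of 2 classes, Ebf3 was at 0.372, 0.581 and 0.342 CPM, Foxc1 at 0, 1.36 and 1.71 CPM and Prrx1 at 0, 0.194 and 0 CPM. Ebf1 was barely moved, at 505, 325 and 2332 CPM, and Runx1 was at 21.9, 28.1 and 117 CPM.

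The Ebf1 level of B cells differed less between libraries once cells rich in Jchain were set apart. That split was chosen after seeing the data, and its part in the difference between libraries was not tested. Cells with 10 or more UMIs of Jchain, the joining chain of secreted antibody, made up 42.3% of VC, 56.6% of FLOX and 4.42% of WT B cells (71, 211 and 15 cells). In them Ebf1 was at 13.0, 10.7 and 5.70 CPM, while Prdm1, the factor of plasma cells, was at 97.5, 96.6 and 76.9 CPM. Pax5, the B cell factor lost in plasma cells, was at 1.80, 0.895 and 2.85 CPM. In the remaining 97, 162 and 324 B cells Ebf1 was at 2508, 2063 and 2633 CPM, so the 3 libraries then lay within 1.5-fold of each other. In those cells Runx1 was at 130, 299 and 144 CPM, and at 94.0, 159 and 133 CPM once barcodes of 2 classes were also left out. Pre-B cells, with 2 or more UMIs of Vpreb1 and Igll1, numbered only 6 in VC and 27 in FLOX, against 67 in WT, and had Ebf1 at 1378, 2085 and 2231 CPM. Stromal Cxcl12 stood at 2169, 1186 and 7.46 CPM and Ebf3 at 155, 51.2 and 0 CPM in these cells, and the part of such transcripts in the Ebf1 values was not tested.

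**Figure D4:**
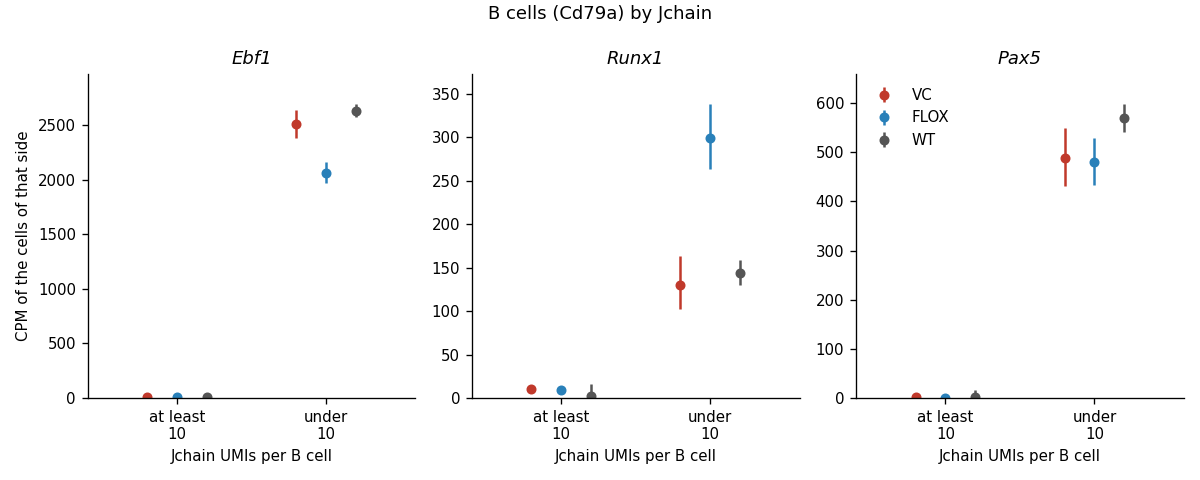
Level of Ebf1, Runx1 and Pax5 (CPM, linear axes) in B cells with at least 10 Jchain UMIs (left in each panel) and with fewer, 1 point per library (VC, FLOX, WT) with its 95% Poisson interval. Ebf1 lies at 5.70 to 13.0 CPM in the Jchain-rich cells and at 2063 to 2633 CPM in the others.

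Runx1 was also present in other blood cells. In cells with Ptprc (CD45) transcripts that met no other rule (135 VC, 400 FLOX and 274 WT cells), Runx1 was at 97.4, 125 and 137 CPM, and LepR stroma stood 8.66-, 7.76- and 8.42-fold above them. Ebf1 was at 3.71, 2.61 and 8.32 CPM in these cells, Ebf3 at 1.39, 2.09 and 1.45 CPM, and Ebf2 at 0 in all 3 libraries. In the 7, 8 and 40 erythroid cells Runx1 had only 2, 23 and 21 UMIs, while Ebf1, Ebf2, Ebf3 and Prrx1 had none. In every library the highest Runx1 level on the CPM scale was therefore in LepR stromal or fibroblast-like cells and not in a blood class.

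Fibroblast-like cells gave the highest Prrx1 level of any class, although they were only 5 in VC, 8 in FLOX and 2 in WT. Of these barcodes, 2 in VC and 3 in FLOX also met the endothelial rule, and 1 in FLOX met the B cell rule. Prrx1 was at 597, 470 and 1189 CPM there (56, 47 and 23 UMIs), and the ratio of LepR stromal to fibroblast-like cells was 0.534, 0.691 and 0.363. Ebf2 was at 42.6, 110 and 103 CPM from 4, 11 and 2 UMIs. Ebf3 went the other way at 53.3, 60.0 and 414 CPM, with LepR stromal cells higher by 16.5-, 15.3- and 3.29-fold. It was the 1 member of 6 at least 2-fold higher in LepR stromal cells in every library (0.543% of 11780 features were). A count of 0 in fibroblast-like cells stood at a floor of 32.0, 30.0 and 155 CPM. Features low in LepR stroma could therefore not meet this rule, which makes the 0.543% a weak background. The median log2 ratio over all features was -0.70. Adipoq was at 0 in fibroblast-like cells, but Lepr was at 725, 949 and 569 CPM and Cxcl12 at 991, 1189 and 3826 CPM. In LepR stromal cells Lepr was at 1546, 1390 and 2417 CPM. Ebf1 was at 384, 640 and 827 CPM and met the size rule for lower in VC, 1 of 3 members tested, where 8.84% of 554 features were called higher and 7.22% lower. With so few cells these counts describe single cells more than a type, and the Ebf1 call was lost when barcodes of 2 classes were left out, under stricter purity and at a Cxcl12 limit of 100.

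Between genotypes no member of LepR stroma passed the size set for a difference in VC. The size asked for 1.5-fold or more from both FLOX and WT in 1 direction, and for more than FLOX and WT differed, among features of 50 CPM and 50 UMIs or more. Of the 3345 features tested, 0.897% were higher in VC and 0.149% lower, and none of the 5 members tested was among them; Ebf2 was too low to be tested. The VC to FLOX ratio was 1.28 for Foxc1 (interval 1.22 to 1.34), 1.09 for Ebf1, 0.956 for Ebf3, 0.982 for Prrx1 and 0.869 for Runx1. The VC to WT ratio was 0.779 for Foxc1 (0.733 to 0.829), 0.731 for Ebf1, 0.645 for Ebf3 (0.620 to 0.671), 0.737 for Prrx1 and 0.729 for Runx1. VC thus lay between the controls for Foxc1 and Ebf1 and below both for Ebf3 and Runx1. Prrx1 was level in VC and FLOX within counting error (0.933 to 1.03), and the sign of its log2 ratio changed between alternatives (-0.026 to 0.029). For Ebf1, Ebf3, Prrx1 and Runx1 VC lay nearer to FLOX than to WT. Foxc1 in VC lay about midway on the log2 scale, at 0.355 over FLOX and -0.360 over WT. Over the alternatives these 2 values ran from 0.351 to 0.411 and from -0.374 to -0.260.

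The larger gap was between WT and the other libraries. FLOX to WT ratios were 0.609 for Foxc1 (0.575 to 0.646), 0.670 for Ebf1, 0.675 for Ebf3, 0.751 for Prrx1 and 0.839 for Runx1. All 5 were highest in WT, as were 41.4% of all features tested, a comparison chosen after the values were seen. The median log2 value of the 5 members was -0.45 for VC over WT, -0.57 for FLOX over WT and -0.03 for VC over FLOX, beside -0.03, 0.04 and -0.06 over all features. FLOX and VC both carry the floxed allele and WT does not, but with 1 library each, genotype, mouse and library cannot be told apart. Median depth of the LepR stromal cells was 13582 UMIs in VC, 11315 in FLOX and 10654 in WT, and the class made up 17.0%, 19.3% and 6.11% of the cells kept. The part of depth, and of the erythroid and leukocyte transcripts given above, in these gaps was not tested.

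**Figure D5:**
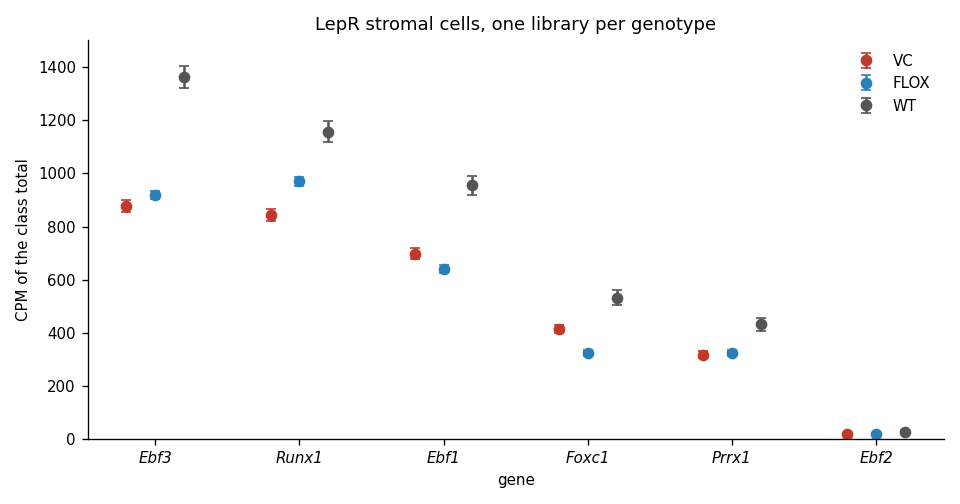
Level of each of the 6 genes (CPM of the class total) in LepR stromal cells of VC, FLOX and WT, with 95% Poisson intervals that cover counting error only. Ebf3 lies at 878, 919 and 1362 CPM and Foxc1 at 415, 325 and 533 CPM.

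In endothelial cells, the class in which the Cdh5 promoter is active, only Ebf1 was high enough to be tested and it was not called (1.75% of 3430 features were higher in VC and 0.0583% lower). Its VC to FLOX ratio was 0.994 (0.919 to 1.07) and its VC to WT ratio 0.771 (0.717 to 0.829). Under a stricter definition, with Adipoq, Col3a1, Cd79a and Ptprc at 0, Ebf1 was at 38.0 CPM in VC, 42.7 in FLOX and 35.5 in WT, and the sign of VC over WT turned, with log2 values of 0.10 and, in the whole class, -0.37. Foxc1 was below the minimum for the size rule, and its ratio was 1.19 to FLOX (1.10 to 1.29) and 1.19 to WT (1.10 to 1.29). In B cells both members tested, Ebf1 and Runx1, were not called (0.267% of 2248 features were higher in VC and 0.178% lower). Runx1 met the size for lower in VC under 4 alternatives, among them median-of-ratios scaling (log2 -0.85 over FLOX and -0.92 over WT), but its VC over FLOX value was -0.36 without barcodes of 2 classes. As counted, both genes were at least 2-fold higher in WT than in both other libraries, as were 51.9% of all features tested, and the median log2 value over all features was -1.06 for VC over WT.

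Related genes were described from lists of the factors' families and partners. Of 8 family and partner genes, 7 could be compared between LepR stromal and endothelial cells, and 2 were higher and 1 lower, with a median log2 ratio of -0.22. Runx2 was at 265 CPM in VC, 268 in FLOX and 377 in WT stroma, 54.2- to 165-fold above endothelium, and Runx3 at 49.4, 39.6 and 42.9 CPM, 13.0- to 44.2-fold above it. All 3 runt-domain genes were therefore higher in this stroma than in endothelium. Zfp521, which encodes a zinc finger protein that binds EBF1, was lower, at 10.3, 13.6 and 20.1 CPM in LepR stromal cells and 69.6, 74.4 and 93.8 CPM in endothelial cells. Foxc2, the closest relative of Foxc1, had 9.62, 10.3 and 14.8 CPM against 4.64, 5.43 and 4.44 CPM. Cbfb, the shared partner of the runt-domain factors, was at 41.6, 35.8 and 34.2 CPM against 42.7, 41.7 and 48.1 CPM, and Ebf4 had only 7, 9 and 2 UMIs in LepR stromal cells. Prrx2, the relative of Prrx1, had 9, 16 and 2 UMIs there and was too low to compare.

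Among 24 other stromal factors, 23 could be compared and 9 were higher in LepR stromal than in endothelial cells and 5 lower, with a median log2 ratio of 0.35. Nr2f2, a nuclear receptor of venous identity, was lowest, at 0.0203 to 0.0380 of the endothelial level. Sox9, a factor of cartilage precursors, was at 21.5 CPM in VC, 28.6 in FLOX and 31.5 in WT stroma, against 3, 0 and 4 UMIs in endothelial cells, and Twist2, a mesenchymal factor, at 11.3, 7.82 and 9.40 CPM against 1, 0 and 1 UMIs. Of 10 niche genes 9 were higher in the stroma (median 6.18), most for the cytokine Il34 at 397- to 802-fold, and Vcam1 (0.657 to 1.25) was not. Of 12 osteogenic genes 11 were higher (median 7.17), and all 10 endothelial factors were lower (median -6.01), most for Sox18 at 0.00365 to 0.00560. Of 12 B lineage genes compared with B cells, 11 were lower in LepR stroma and Foxo1 (0.474 to 1.14) was not. Of 9 blood factors, 7 could be compared with endothelium, and Runx3 was higher and Lmo2 and Cbfa2t3 lower (median -1.08). Between VC and both controls, few list genes were high enough to be tested: of 85 list entries (some genes are in 2 lists), 35 in LepR stromal, 28 in endothelial and 21 in B cells, of which 0 passed the size.

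The genes whose levels followed each member most closely were found over 12 points, 4 classes in each of 3 libraries, among 7526 genes. Points of 1 library share their depth and the fibroblast-like points rest on 2 to 8 cells, so Pearson's r is given as a description. Ebf3 went with Il7 (r = 0.978), the B cell growth factor made by stroma, Csf1 (0.974), Fzd5, Ccbe1 and Ackr4. Foxc1 went with Tmem159 (0.982), Fam161a, Pgrmc1, Dapk1 and also Csf1 (0.977). Prrx1 went with Lmo7 (0.997), Lpar1 and Bicc1, and Runx1 with Fam105a (0.977), Fgf7, Rnd3, Rspo3 and Cacna2d1. Ebf2 went with Apod (0.993), Flrt2, Ccdc3, 1500015O10Rik and Wnt5a. Ebf1, high in both stroma and B cells, had the weakest best match, Tmem167 at 0.941, before Slc1a5, H3f3b, Lmo4 and Smim14 (0.871).

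Among the members themselves, Ebf2 and Prrx1 (0.941) and Foxc1 and Ebf3 (0.940) had the most similar levels over these points, and Foxc1 and Ebf1 (0.261) the least similar. The 3 expressed EBF genes were not alike: Ebf1 and Ebf3 had r = 0.408, Ebf1 and Ebf2 0.459, and Ebf2 and Ebf3 0.567.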

How the data were processed

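Per the labels' protocols, droplets of the 10x Genomics 3′ chemistry v3.1 gave the 3 libraries, which were read on a NovaSeq 6000. The authors deposited whole-number UMI counts per gene and barcode, not normalized. Cell Ranger 2.1.1, Seurat 3.1 and build mm10 are named in the submitters' processing notes, while the matrix header gives software version 3.1.0. The rule by which barcodes were kept before deposit is not stated there, and the lowest barcode held 500 UMIs.

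Barcodes with 500 or more genes and at most 10% mitochondrial UMIs were kept and assigned to classes by the thresholds in the report. Classes were read by rule and not clustered. A barcode could meet more than 1 rule (LepR stromal and B: 3 in VC, 8 in FLOX, 3 in WT), and doublets were not called or removed. The fibroblast-like and endothelial rules were both met by 2 barcodes in VC and 3 in FLOX, and the fibroblast-like and B rules by 1 in FLOX. Raw counts were summed per class and library and divided by the class total (CPM, per 1000000 UMIs). The library is the unit, so with 1 per genotype no test was made; Poisson, Clopper-Pearson and conditional binomial limits at 95% cover counting error only. A fold against 0 UMIs uses 3 UMIs as floor. Class comparisons asked for 2-fold in every library among features with 50 or more UMIs over both classes, a minimum that was added when the counts were made. Thinning drew UMIs without replacement with a fixed seed. The scripts were tested on simulated counts. Gene spans came from the GENCODE annotation and promoters from RefSeq, both GRCm38; the sequence search used 250 bases before each start. Similar genes were ranked by Pearson's r of log2(CPM + 10), among genes of 50 CPM or more in at least 1 point, without the members and the 7 class-defining genes.

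The members, gene lists and comparisons were chosen with earlier results of these data known. Named were the 6 members, from each list the genes with the largest and smallest ratio and a few family members of known role, and the 5 most similar genes per member, of which some are not reported here. The gene lists were the family and partner genes, other stromal factors, niche genes, osteogenic genes, B lineage genes, endothelial factors and blood factors. Alternatives covered the cell filters, the Cxcl12 limit, mixed barcodes, scaling, the folds and the minimum level. The Jchain split of B cells, its exclusion and a total without immunoglobulin genes were chosen after seeing the data. Python 3.11.15, numpy 2.4.6, scipy 1.17.1, pandas 2.3.3 and matplotlib 3.10.9 were used.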

Additional observations from a re-analysis of the deposited data

Results flagged for a closer look

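In 6 cases a member lay on opposite sides of WT in 2 classes; with 1 library per genotype none of these differences was tested. Foxc1 in VC over WT had a log2 value of -0.36 in LepR stromal and 0.25 in endothelial cells, a difference of -0.61. Prrx1 in VC over WT was at -0.44 in LepR stromal and 0.75 in endothelial cells (difference -1.19), and in FLOX over WT at -0.41 and 0.74 (difference -1.15), with endothelial levels of only 2.02 CPM in VC, 2.01 in FLOX and 1.20 in WT. Runx1 in FLOX over WT was at -0.25 in LepR stromal and 0.38 in endothelial cells (difference -0.63). In B cells it was at -1.19, which differs from the endothelial value by 1.57. Without Jchain-rich cells the B cell value was 1.06, and with each cell weighted alike the endothelial value was -0.00051. Ebf2 in FLOX over WT was at -0.60 in LepR stromal and 2.29 in endothelial cells (difference -2.89), the second from 16 UMIs in 4 FLOX cells and 4 UMIs in 1 WT cell. Under stricter endothelial purity Ebf2 had 0 UMIs in both FLOX and WT, so that difference could not be computed there.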

How the results depend on the processing

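No paired analysis was possible because each genotype had 1 library. Members higher in LepR stromal than in endothelial cells stayed at 6, higher than in B cells at 5, highest in WT stroma at 5, and past the size in VC stroma or endothelium at 0, in every alternative run for each. The lowest log2 ratio of LepR stroma to endothelial or B cells over the libraries changed sign in none of 111 values. Of these values 33 moved outside the counting interval of the reported one, and the largest shift was 5.05. Against B cells the lowest log2 ratio ran from 1.70 to 3.34 for Runx1 and from 2.95 to 5.33 for Foxc1. Fibroblast-like cells were not part of these 111 values or of the 336 log2 values given next. The Ebf1 ratio to B cells did turn in VC and FLOX without Jchain-rich cells, to 0.278 and 0.310 (reported 1.35 and 1.88). Of 336 log2 values between libraries 19 changed sign. Among them was Runx1 in B cells, FLOX over WT, at -1.19 in all B cells and 1.06 without Jchain-rich cells. All 36 shares moved, since thinning and depth set them. A fibroblast-like class at a Cxcl12 limit of 20 was not run, as WT had no such cell. Few cells and 1 library per genotype limit every value; the cause of each shift below was not tested unless the alternative itself asks for more or less.

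Without Jchain-rich B cells, features higher in LepR stroma than in B cells numbered 2245 (reported 3502), and those higher and lower in VC B cells 48 and 52 (6 and 4). At a class fold of 4 the features higher in stroma were 2081 against B, 1266 against endothelial (2027) and 17 against fibroblast-like cells (64), and the member Ebf3 was lost there (0, reported 1), as at a Cxcl12 limit of 100 (0). With 1000 genes and 5% mitochondrial UMIs as limits, or median-of-ratios scaling, that member count was 2, and the scaling gave 139 features. The 1 fibroblast-like member past the size was lost (0) at a Cxcl12 limit of 100, without barcodes of 2 classes, under stricter purity and at a genotype fold of 2, and was 2 at a minimum of 10 CPM. The B cell members past the size (0) became 1, Runx1, without the deepest 5% of barcodes, with each cell weighted alike, without immunoglobulin genes and under median-of-ratios scaling.

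Features higher in VC (reported 30 in LepR stroma, 60 in endothelium, 6 in B, 49 in fibroblast-like cells) numbered 17, 38, 3 and 22 at a fold of 2 and 79, 115, 33 and 177 at a minimum of 10. Features lower in VC (5, 2, 4 and 40) numbered 1 in stroma, 0 in endothelium and 20 in fibroblast-like cells at a fold of 2, and 44, 29, 41 and 553 at a minimum of 10. The stricter cell filter gave 1 lower in endothelium, and 18 higher and 23 lower in fibroblast-like cells. Leaving out the deepest barcodes gave 19 and 18 there. Without barcodes of 2 classes 3 were lower in stroma and 25 in fibroblast-like cells, and under stricter purity 3, 25 and, in B cells, 8. With cells weighted alike 8 were lower in stroma, and 12 were higher and 7 lower in B cells. Without immunoglobulin genes 3 were higher and 14 lower in B cells. Median-of-ratios scaling gave 3 lower in stroma, 1 lower in endothelium and 2 higher in B cells.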
